A study of Homo sapiens with 12 samples.

Results

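The set described here holds DKK1 and other genes of the Wnt pathway: the secreted Wnt antagonists DKK1, DKK3 and SFRP1, the ligand WNT5A, the receptor FZD7, the transducer CTNNB1, the nuclear factor LEF1, the feedback genes AXIN2 and NKD1, and TCF4, an E protein outside the core pathway. The 10 members are a list of names out of 40173 gene IDs in the table, drawn up with earlier results of these data known, so counts over them describe these genes and are no independent evidence. Expression was measured by RNA sequencing of 624Mel, a human melanoma cell line, with 3 libraries for each of 4 conditions. Cells received a control siRNA (siCTRL) or an siRNA against MITF (siMITF), the transcription factor that drives the melanocytic program, and each siRNA was used without IFNγ or with 5 ng/mL IFNγ. IFNγ was given 24 h after transfection for 24 h, which puts the collection of these cells at 48 h after transfection. No time was recorded for the cells without IFNγ. The study used MITF knockdown to shift the cells to a less differentiated state and asked how that state alters the response to IFNγ. The model is 1 cell line with 1 MITF siRNA and transient transfection.

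Values are TPM, the share of a library's transcripts that come from a gene, corrected for transcript length, so levels can be compared between genes. Reads are not kept on this scale, and the sequencing depth behind each value is unknown. TPM were summed over all transcripts of a gene, so isoforms such as the short forms of LEF1 were not told apart. Between 11850 and 12377 genes per library reached 2 TPM, and libraries correlated at 0.978 to 0.998 across genes. Mitochondrial genes took 7.42% to 16.9% of the TPM, with the lowest share in replicate 2 of every condition. MITF was at 187 to 229 TPM in siCTRL libraries and at 36.0 to 49.7 TPM in siMITF libraries, and at 158 to 246 and 37.5 to 55.1 TPM with IFNγ, so every library matched its siRNA label. All 8 melanocytic markers were at 2 TPM or more in every library. Without IFNγ their sum, which includes MITF, ranged from 8010 to 9470 TPM with the control siRNA and from 2470 to 2780 TPM after knockdown. Its largest parts were PMEL (mean 4830 against 1080 TPM) and TYRP1 (2150 against 834 TPM). The set did not fall as a whole: SOX10 changed little (263 against 226 TPM), and S100B alone was higher after knockdown (81.8 against 167 TPM). The 4 T cell and 4 endothelial markers stayed under 2 TPM throughout, as did 5 of 6 keratinocyte, 4 of 6 fibroblast and 3 of 4 myeloid markers. The exceptions were KRT10 (38.9 to 60.8 TPM), LUM (2.07 to 7.42 TPM), PDGFRA (0.54 to 3.98 TPM) and LYZ (1.31 to 5.22 TPM). LUM was the largest part of the fibroblast sum and LYZ of the myeloid sum. The fibroblast sum was 6.22 to 7.83 TPM in siCTRL, 10.3 to 12.5 TPM in siMITF, 4 to 4.32 TPM in siCTRL + IFNγ and 6.38 to 7.24 TPM in siMITF + IFNγ libraries. The myeloid sum was 2.76 to 3.06 TPM in siCTRL and 4.73 to 5.61 TPM in siMITF libraries. With IFNγ it was 1.58 to 2.2 TPM in siCTRL and 3.77 to 3.79 TPM in siMITF libraries. The part of these shifts in the results below was not tested. In bulk RNA, fewer cells expressing a gene and less RNA per cell cannot be told apart.

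In canonical Wnt signalling, a secreted Wnt protein joins a Frizzled receptor to the co-receptor LRP5 or LRP6, which stops a cytoplasmic complex of AXIN, APC, GSK3 and casein kinase from marking β-catenin for destruction. β-Catenin then enters the nucleus, binds TCF and LEF proteins and turns on target genes, several of which feed back on the pathway. Dickkopf proteins such as DKK1 block LRP5 and LRP6 with the help of Kremen receptors, and SFRP proteins bind Wnt ligands outside the cell. In the melanocyte lineage, Wnt signalling promotes pigment cell fate, and the MITF promoter is a known target of β-catenin with LEF1. WNT5A mostly signals without β-catenin and is known in melanoma for its association with invasive cells.

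The promoters of DKK1 and LEF1 are shown because LEF1 was the member whose values were most like those of DKK1. Each runs from 250 bases before to 50 bases after the transcription start (RefSeq, GRCh38.p14), which was given for 5 of the 10 members. The DKK1 window is chr10:52314031-52314330 on the plus strand, the LEF1 window chr4:108166252-108166551 on the minus strand, and capitals mark the TCF/LEF core CTTTGA on either strand.
DKK1: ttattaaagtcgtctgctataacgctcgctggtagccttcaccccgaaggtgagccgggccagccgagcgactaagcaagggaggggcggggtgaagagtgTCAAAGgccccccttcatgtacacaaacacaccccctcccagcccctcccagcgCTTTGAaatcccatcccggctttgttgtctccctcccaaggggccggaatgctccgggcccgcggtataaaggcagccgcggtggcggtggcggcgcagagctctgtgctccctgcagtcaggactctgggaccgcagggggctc
LEF1: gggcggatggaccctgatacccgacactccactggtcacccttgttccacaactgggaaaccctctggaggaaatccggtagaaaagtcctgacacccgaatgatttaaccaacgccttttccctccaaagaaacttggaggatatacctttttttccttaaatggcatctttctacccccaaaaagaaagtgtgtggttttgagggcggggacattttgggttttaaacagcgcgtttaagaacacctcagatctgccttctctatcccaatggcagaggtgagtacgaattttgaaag
The DKK1 window held the core at -149 to -144, on the reverse strand, and at -95 to -90, on the forward strand. Of 35116 human promoter windows of this length, 12.9% held the core at least once and 1.29% at least 2 times. Neither window held the E-boxes CACGTG or CATGTG, letters bound by MITF and related factors and present in 7.26% and 11.1% of windows, or the interferon-gamma-activated site TTCNNNGAA, present in 7.66%. The windows of CTNNB1 and WNT5A held none of these 4 motifs on either strand. Of the 10 windows of TCF4, which has several starts, 2 held TTCNNNGAA, 1 held CATGTG at 2 places and 1 held CACGTG, and none held the TCF/LEF core. The LEF1 window belongs to a start inside the gene as GENCODE annotates it, whose 5′ end lies at 108168956, so sequence around that end was not searched. The windows of CTNNB1, WNT5A and TCF4 likewise left out the 5′ ends in GENCODE, at 41194741, 55490539 and 55664787. These are matches of letters only, and binding was not measured.

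Knockdown of MITF was accompanied by higher DKK1, SFRP1, LEF1, NKD1, AXIN2 and FZD7 and lower CTNNB1, both without and with IFNγ. The test was limma on log2(TPM + 1), with p-values adjusted over all tested genes, and a gene passed with an adjusted p under 0.05. Only genes averaging 2 TPM or more in some condition were tested, which kept 8 of the 10 members and left out DKK3 and WNT5A. DKK1 reached that mean only in the siMITF conditions. Without IFNγ, 7 of the 8 passed, against 34.8% of all tested genes. Of these, 6 were higher and 1 lower, against 21.0% of tested genes higher and 13.8% lower. With IFNγ, 7 passed again, 6 higher and 1 lower, where the shares of all tested genes were 33.1%, 18.4% and 14.7%. A large change, defined in addition by an absolute log2 difference of at least 1, was seen for the same 4 genes, DKK1, SFRP1, LEF1 and NKD1, in both comparisons, against 6.10% and 5.68% of tested genes. The median log2 difference of the 8 was 0.96 without and 1.08 with IFNγ, beside medians of 0.06 and 0.03 over all tested genes. Libraries of the 2 siRNAs did not overlap for 7 of the 8 without IFNγ, against 55.0% of tested genes, and for all 8 with IFNγ, against 38.3%.

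**Figure D1:**
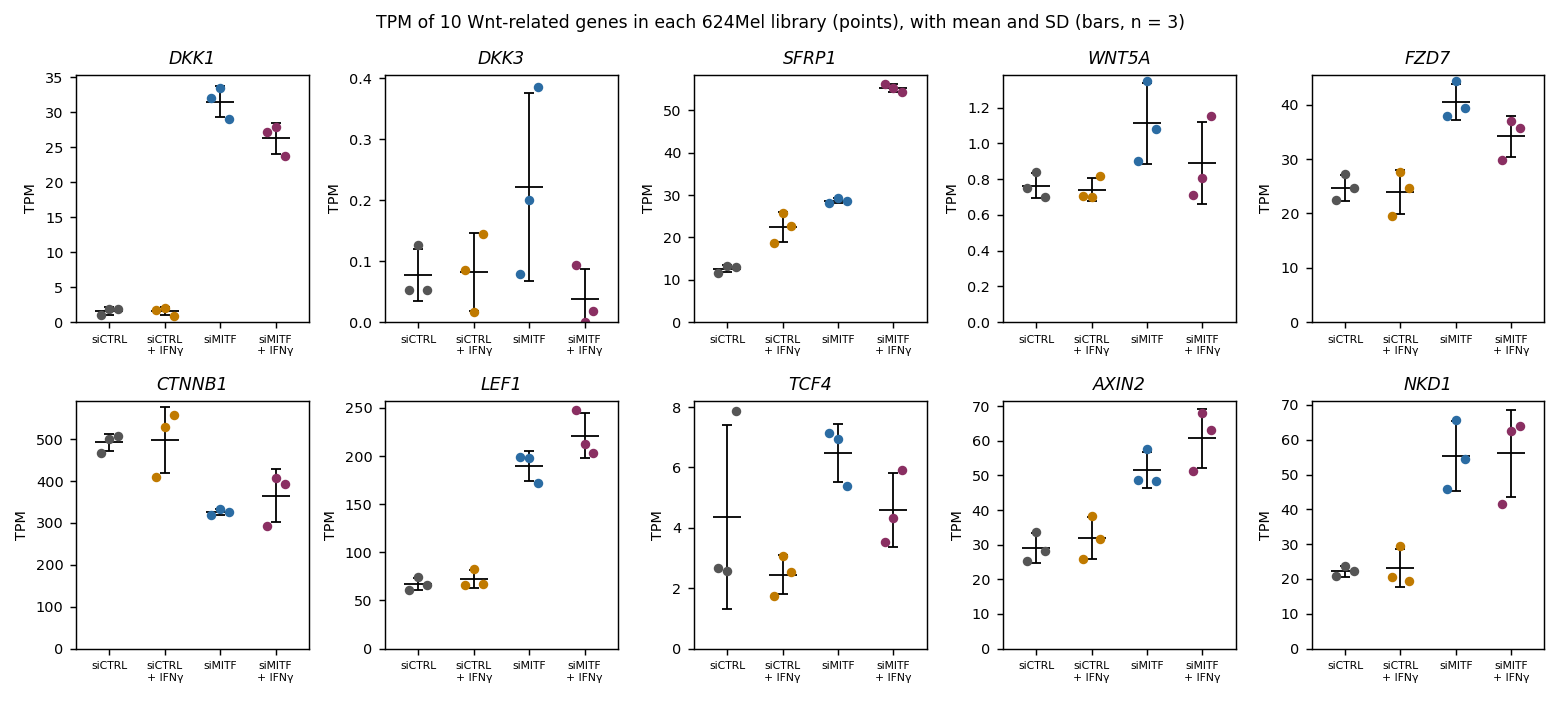
TPM of the 10 members (vertical axes, linear from 0, each with its own scale) in the 4 conditions (horizontal axes). Points are libraries and bars the mean and SD of 3. DKK1 sits at 0.90 to 1.98 TPM in all siCTRL libraries and at 23.8 to 33.5 TPM in all siMITF libraries, SFRP1 takes a separate level in each condition, and CTNNB1 is lower in siMITF libraries.

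DKK1 (ENSG00000107984, chromosome 10 from 52314281 to 52318042, plus strand) showed the largest difference among the members in both knockdown comparisons. It was at 0.99, 1.94 and 1.89 TPM in the siCTRL libraries and at 32.0, 33.5 and 29.1 TPM in the siMITF libraries. With IFNγ the values were 1.82, 1.98 and 0.90 TPM in siCTRL and 27.2, 27.9 and 23.8 TPM in siMITF cells. The gene was thus below 2 TPM, the lower limit of the test, in every siCTRL library, and every siMITF library lay far above all of them. The mean rose from 1.60 ± 0.54 to 31.6 ± 2.23 TPM (SD, n = 3), a 19.7-fold ratio. On the log2(TPM + 1) scale, which understates the change of a gene this low, the difference was 3.66 ± 0.18 (SE, limma adjusted p = 1.55e-08). In the presence of IFNγ the means were 1.57 ± 0.58 and 26.3 ± 2.18 TPM, a ratio of 16.8 and a log2 difference of 3.44 ± 0.18 (limma adjusted p = 3.24e-08). Leaving out any 1 library kept the log2 difference between 3.48 and 3.76 without IFNγ and between 3.23 and 3.56 with it.

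The effect of IFNγ on DKK1 did not pass in either siRNA. In siCTRL cells the log2 difference was -0.03 (95% confidence interval -0.42 to 0.37, limma adjusted p = 0.95). In siMITF cells it was -0.26 (-0.65 to 0.14, limma adjusted p = 0.35), although all 3 libraries with IFNγ lay below the 3 without, as the libraries of 40.5% of tested genes did not overlap in this comparison. The interaction, the IFNγ effect in siMITF minus that in siCTRL cells, was -0.23 (-0.79 to 0.33, limma adjusted p = 0.961).

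SFRP1 (ENSG00000104332, chromosome 8 from 41261962 to 41309473, minus strand), which encodes a secreted Frizzled-like protein that binds Wnt ligands, was the only member that passed for both treatments in the fit without a replicate block. Its TPM were 11.7, 13.2 and 13.1 in siCTRL, 18.8, 25.8 and 22.6 in siCTRL + IFNγ, 28.2, 29.3 and 28.6 in siMITF, and 56.2, 55.2 and 54.3 in siMITF + IFNγ libraries. The 4 conditions did not overlap, and each level in this order lay above the one before. MITF knockdown raised SFRP1 by 1.12 ± 0.10 on the log2 scale without IFNγ (SE, limma adjusted p = 2.86e-06) and by 1.28 ± 0.10 with IFNγ (limma adjusted p = 1.07e-06). IFNγ raised it by 0.77 ± 0.10 in siCTRL (limma adjusted p = 2.01e-04) and by 0.92 ± 0.10 in siMITF cells (limma adjusted p = 3.28e-05). The interaction was 0.15 (95% confidence interval -0.16 to 0.46, limma adjusted p = 0.939), and the mean with both treatments was 4.36 times that in siCTRL cells, 55.2 ± 0.91 against 12.7 ± 0.86 TPM (SD, n = 3). DKK3 (ENSG00000050165, chromosome 11 from 11956207 to 12009769, minus strand), a Dickkopf relative that does not share the LRP block of DKK1, was too low to test. It stayed between 0 and 0.39 TPM in all libraries, with the highest value in siMITF replicate 3 and the 0 in siMITF + IFNγ replicate 2.

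WNT5A (ENSG00000114251, chromosome 3 from 55465715 to 55490539, minus strand) was also below the limit for testing. The 3 libraries of each condition held 0.70 to 0.84 TPM in siCTRL, 0.70 to 0.82 TPM in siCTRL + IFNγ, 0.90 to 1.35 TPM in siMITF and 0.71 to 1.15 TPM in siMITF + IFNγ. Without IFNγ the siMITF libraries lay above the siCTRL libraries, and with IFNγ the 2 ranges overlapped. FZD7 (ENSG00000155760, chromosome 2 from 202033855 to 202038441, plus strand) encodes a Frizzled receptor for Wnt ligands. It was at 22.4, 27.2 and 24.6 TPM in siCTRL and 38.0, 44.3 and 39.4 TPM in siMITF libraries, and with IFNγ at 19.6, 27.6 and 24.7 TPM against 29.9, 37.0 and 35.7 TPM. The siMITF libraries were all higher, and the log2 difference was 0.69 ± 0.13 without IFNγ (SE, limma adjusted p = 0.0011) and 0.50 ± 0.13 with IFNγ (limma adjusted p = 0.00941). IFNγ gave a log2 difference in FZD7 of -0.05 in siCTRL cells (limma adjusted p = 0.846) and of -0.24 in siMITF cells, where all libraries with IFNγ were lower but the limma adjusted p was 0.201. The FZD7 difference in siMITF cells passed in the fit with replicate as a block (limma adjusted p = 0.0168).

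CTNNB1 (ENSG00000168036, chromosome 3 from 41194741 to 41260096, plus strand) encodes β-catenin, whose activity is controlled mainly through the stability of the protein, which was not measured here. It was the most abundant member, with 468, 501 and 508 TPM in siCTRL and 319, 333 and 326 TPM in siMITF libraries. With IFNγ it was at 409, 530 and 557 TPM in siCTRL and 292, 408 and 394 TPM in siMITF cells. Each siMITF library lay below each siCTRL library, although with IFNγ the nearest libraries, siMITF replicate 2 and siCTRL replicate 1, were almost level. MITF knockdown gave a log2 difference of -0.59 ± 0.13 without IFNγ (SE, limma adjusted p = 0.00334) and -0.45 ± 0.13 with IFNγ (limma adjusted p = 0.0169). The difference with IFNγ did not pass when siCTRL + IFNγ replicate 2 or 3 or siMITF + IFNγ replicate 1 was left out (limma adjusted p = 0.0571, 0.0785 and 0.0503). It also did not pass when only the 2 conditions compared were fitted or when low values were not filtered (limma adjusted p = 0.0763 and 0.0555). CTNNB1 differed with IFNγ by 0.01 in siCTRL and 0.14 in siMITF cells on the log2 scale, and neither passed (limma adjusted p = 0.986 and 0.462).

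**Figure D2:**
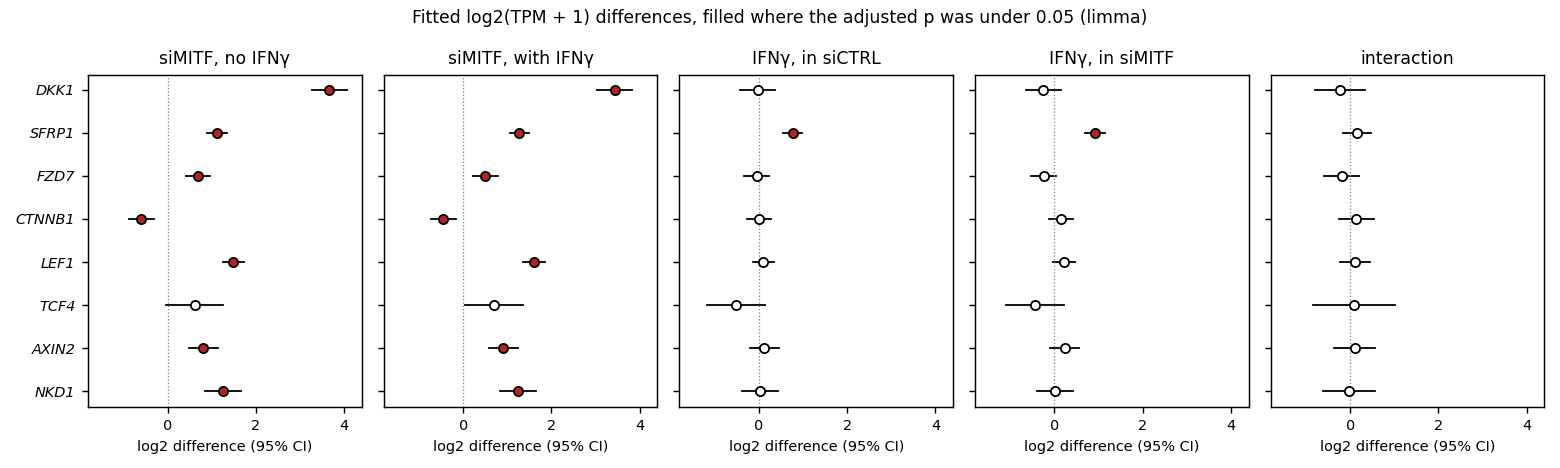
Fitted differences on the log2(TPM + 1) scale for the 8 tested members, with 95% confidence intervals (horizontal bars), in the 2 knockdown comparisons, the 2 IFNγ comparisons and the interaction. Filled points passed at an adjusted p under 0.05 (limma). DKK1 stands at 3.66 and 3.44 with knockdown, SFRP1 is the only filled point with IFNγ, and all interaction intervals include 0.

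LEF1 (ENSG00000138795, chromosome 4 from 108047545 to 108168956, minus strand) encodes a DNA-binding partner of β-catenin. Its TPM were 61.0, 74.1 and 66.1 in siCTRL and 199, 198 and 172 in siMITF libraries, and 66.4, 83.1 and 67.4 against 248, 213 and 203 with IFNγ. Every siMITF library lay well above every siCTRL library. The log2 difference was 1.49 ± 0.11 without IFNγ (SE, limma adjusted p = 5.88e-07) and 1.60 ± 0.11 with IFNγ (limma adjusted p = 3.57e-07). For IFNγ it was 0.11 in siCTRL (limma adjusted p = 0.608) and 0.22 in siMITF cells (95% confidence interval -0.02 to 0.46, limma adjusted p = 0.188). TCF4 (ENSG00000196628, chromosome 18 from 55222185 to 55664787, minus strand) encodes a basic helix-loop-helix E protein. It shares its symbol with an older name of the Wnt effector TCF7L2 and is a different gene. TCF4 was at 2.66, 2.56 and 7.88 TPM in siCTRL and 7.13, 6.93 and 5.39 TPM in siMITF libraries, and with IFNγ at 1.75, 3.05 and 2.54 TPM against 3.53, 4.32 and 5.93 TPM. Replicate 3 of siCTRL stood apart from the other two and overlapped the siMITF libraries. The log2 difference with knockdown was 0.61 ± 0.30 without IFNγ (SE, limma adjusted p = 0.14) and 0.69 ± 0.30 with IFNγ (limma adjusted p = 0.0999). The difference with IFNγ passed with a block for the replicate number (limma adjusted p = 0.045). A fit of only the conditions compared also gave a call (limma adjusted p = 0.0411). Without siCTRL replicate 3, TCF4 differed by 1.04 without IFNγ (limma adjusted p = 0.00269), and the difference with IFNγ passed as well (limma adjusted p = 0.0133).

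AXIN2 and NKD1 are widely used as readouts of β-catenin activity, since both are induced by the pathway and then restrain it, AXIN2 within the destruction complex and NKD1 through Dishevelled. AXIN2 (ENSG00000168646, chromosome 17 from 65528563 to 65561648, minus strand) was at 25.3, 33.7 and 28.3 TPM in siCTRL and 48.6, 57.5 and 48.3 TPM in siMITF libraries. With IFNγ its values were 25.9, 38.2 and 31.6 TPM in siCTRL and 51.2, 67.9 and 63.1 TPM in siMITF cells. The siRNA groups did not overlap in either setting, and the log2 difference was 0.80 ± 0.15 without IFNγ (SE, limma adjusted p = 0.00123) and 0.91 ± 0.15 with it (limma adjusted p = 5.11e-04). NKD1 (ENSG00000140807, chromosome 16 from 50548396 to 50649249, plus strand) was at 20.7, 23.8 and 22.2 TPM in siCTRL and 45.8, 65.7 and 54.5 TPM in siMITF libraries, and at 20.6, 29.4 and 19.3 TPM against 41.6, 62.6 and 64.0 TPM with IFNγ. Spread was wider in siMITF libraries, with an SD of 10.0 TPM against 1.55 TPM in siCTRL, but the groups did not overlap. Its log2 difference was 1.27 ± 0.19 without IFNγ (SE, limma adjusted p = 2.15e-04) and 1.24 ± 0.19 with it (limma adjusted p = 2.65e-04). Neither gene passed for IFNγ: AXIN2 differed by 0.12 in siCTRL and 0.23 in siMITF cells (limma adjusted p = 0.675 and 0.313), and NKD1 by 0.03 and 0.01 (limma adjusted p = 0.941 and 0.984). The AXIN2 difference in siMITF cells passed when replicate was a block (limma adjusted p = 0.026).

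Among the tested members, only SFRP1 passed for IFNγ, 1 of 8 in siCTRL cells, where 12.9% of all tested genes passed, and 1 of 8 in siMITF cells, where 20.2% passed. With replicate as a block, 3 of 8 passed in siMITF cells, SFRP1, AXIN2 and FZD7, or 37.5% beside 35.7% of all tested genes in that fit. Libraries with and without IFNγ did not overlap for 1 of the 8 in siCTRL cells, against 29.7% of tested genes, and for 4 of the 8 in siMITF cells, against 40.5%. No member had a large change with IFNγ, against 2.52% and 2.95% of tested genes. The median log2 difference of the 8 was 0.02 in siCTRL and 0.08 in siMITF cells, beside medians of -0.07 and -0.10 over all tested genes. For the interaction no member passed in limma, none had an unadjusted p under 0.05, and 0.947% of all tested genes passed. The widest interaction interval was that of TCF4, from -0.85 to 1.01 on the log2 scale, and the others lay within -0.79 to 0.57, so interactions of moderate size cannot be told from none in these libraries.

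In siMITF + IFNγ against siCTRL cells, which share libraries with the comparisons above, 7 of the 8 tested members passed, 6 higher and 1 lower. Of all tested genes 44.5% passed, 21.1% higher and 23.4% lower. Libraries did not overlap for 7 of the 8, against 53.1% of tested genes. Of the members, 5 had a large change, against 8.75% of tested genes, and these were DKK1 (log2 difference 3.41), SFRP1 (2.04), LEF1 (1.71), NKD1 (1.27) and AXIN2 (1.03). FZD7 was higher by 0.45 (limma adjusted p = 0.0128, or 0.0548 without siCTRL replicate 1) and CTNNB1 differed by -0.45 (limma adjusted p = 0.0134). TCF4 differed by 0.18 (limma adjusted p = 0.664), and by 0.61 without siCTRL replicate 3 (limma adjusted p = 0.0345).

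The wider pathway was followed with a list of 115 Wnt genes grouped by textbook role, of which 69 were high enough to test. This list, like the members, was drawn up with earlier results of these data known, so its counts are no independent evidence. Without IFNγ, 36 of the 69 passed for MITF knockdown, 31 higher and 5 lower, or 52.2% beside the 34.8% of all tested genes. With IFNγ, 31 passed, 26 higher and 5 lower, or 44.9% beside 33.1%. With replicate as a block, 47 and 43 of the list passed, or 68.1% and 62.3%, beside 47.7% and 46.3% of all tested genes in that fit. Leaving out the members in the list, 29 and 24 of 62 passed, or 46.8% and 38.7% beside 34.8% and 33.1% of all tested genes. Of these, 25 and 20 were higher, where 21.0% and 18.4% of all tested genes were higher. The median log2 difference of those 62 was 0.28 without and 0.16 with IFNγ. Of the 62, PRICKLE1 alone reached 2 TPM only in the siMITF conditions.

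**Figure D3:**
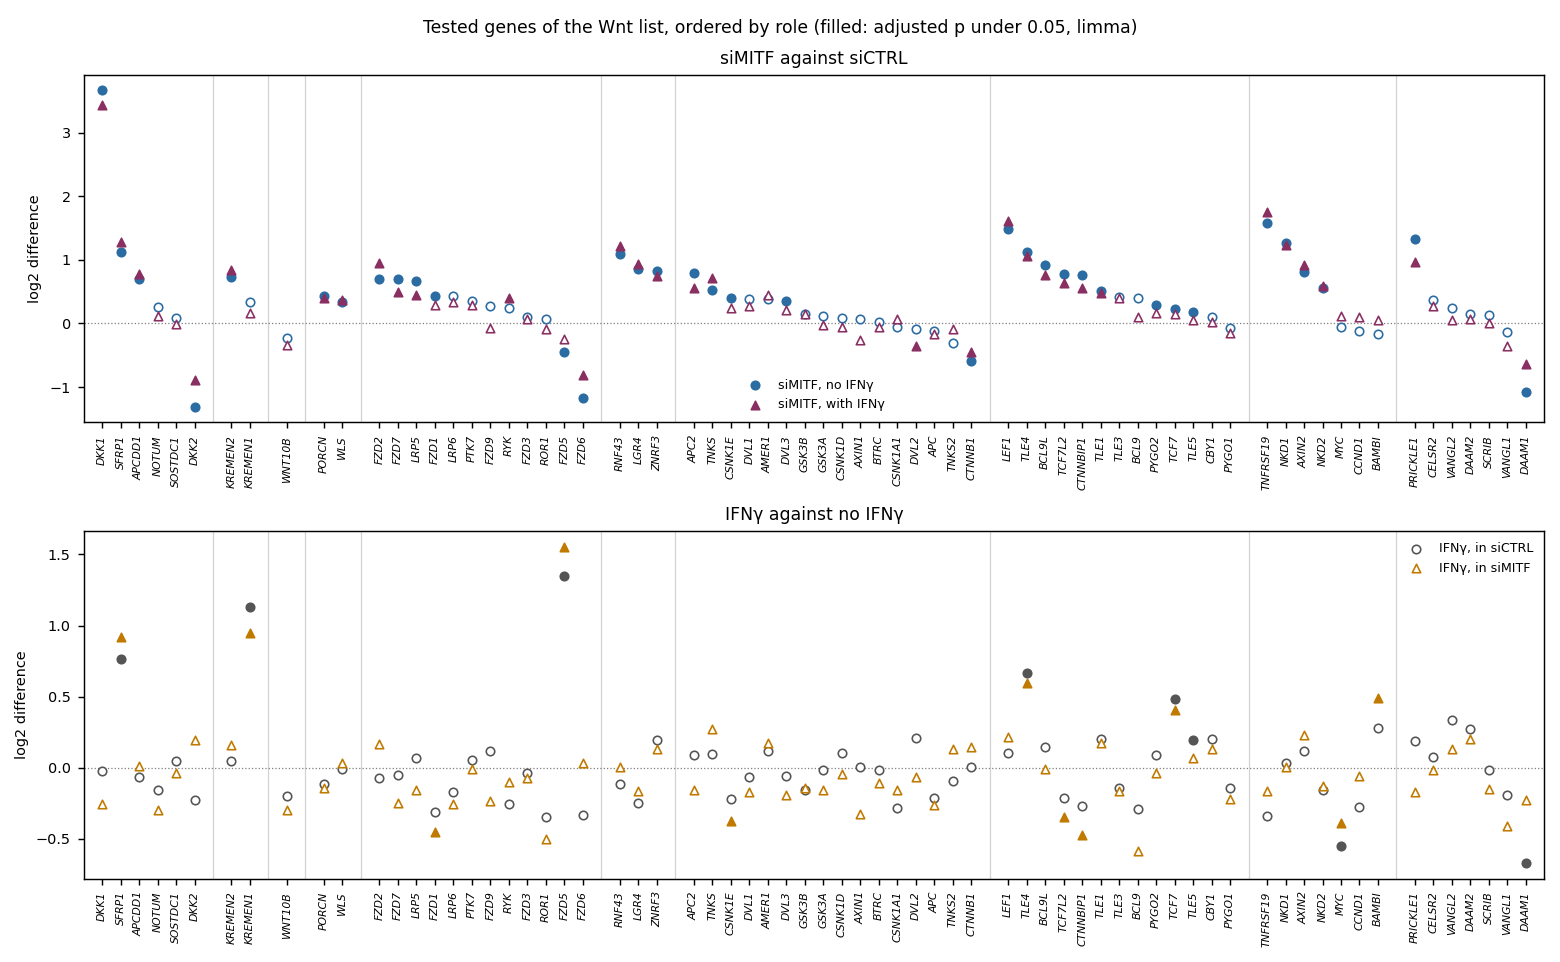
Fitted log2(TPM + 1) differences (vertical axes) of the 69 tested genes of the Wnt list, ordered by role and separated by vertical lines into secreted or membrane-bound antagonists, Kremen receptors, the ligand, ligand secretion, receptors, the R-spondin axis, cytoplasmic transducers, nuclear factors, feedback or target genes and the planar polarity branch. The upper panel shows MITF knockdown without (circles) and with IFNγ (triangles), the lower panel IFNγ in siCTRL (circles) and siMITF cells (triangles), and filled points passed in limma: 36, 31, 8 and 11 genes.

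The Dickkopf family members differed in direction with knockdown. DKK2, a relative of DKK1 that can act on the same co-receptors, was at 7.48, 6.96 and 7.01 TPM in siCTRL and 2.18, 2.12 and 2.60 TPM in siMITF libraries, and its log2 difference was -1.31 ± 0.16 (SE, limma adjusted p = 4.38e-05). With IFNγ, DKK2 was at 4.41, 6.28 and 7.57 TPM against 2.17, 3.30 and 2.92 TPM, a log2 difference of -0.89 (limma adjusted p = 0.00102). DKK2 was thus above DKK1 in every siCTRL library and below it in every siMITF library. APCDD1, a membrane inhibitor of the pathway, rose by 0.71 without and 0.78 with IFNγ (limma adjusted p = 0.0116 and 0.0066, and 0.0526 without IFNγ when siMITF replicate 2 was left out). NOTUM, which inactivates Wnt proteins, and SOSTDC1, an LRP-binding antagonist, did not pass in either setting (limma adjusted p from 0.268 to 0.985). Of 17 secreted or membrane-bound antagonists 6 were tested, and 4 passed in each setting, with DKK1, SFRP1 and APCDD1 higher and DKK2 lower. The share that passed was 66.7% in each setting, beside 34.8% and 33.1% of all tested genes. With the replicate block it was again 66.7%, beside 47.7% and 46.3%. These shares count DKK1, which met the limit for testing only in the siMITF conditions. The Kremen receptor KREMEN2, which takes up LRP6 together with DKK1, was at 3.67 to 4.28 TPM in siCTRL and 7.09 to 7.39 TPM in siMITF libraries, and rose by 0.73 (limma adjusted p = 1.44e-04) without and by 0.85 (limma adjusted p = 4.68e-05) with IFNγ.

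Wnt ligands were scarce: 1 of 19, WNT10B, was high enough to test, at 1.79 to 4.20 TPM. It did not pass for knockdown without or with IFNγ (limma adjusted p = 0.299 and 0.143), but passed with IFNγ when replicate was a block (limma adjusted p = 0.0414). PORCN and WLS, which modify and carry Wnt proteins for secretion, both rose with knockdown in each setting, by 0.33 to 0.43 on the log2 scale, although the call of WLS was lost in 5 fits without and 3 fits with IFNγ of the 12 that each left out 1 library, and that of PORCN with IFNγ in 1. Of 12 tested receptors 6 passed without IFNγ, 4 higher and 2 lower, and 5 with IFNγ, or 50% and 41.7% beside 34.8% and 33.1% of all tested genes. With the replicate block 10 and 9 passed, where the shares of all tested genes were 47.7% and 46.3%. FZD2 rose by 0.70 and 0.94 without and with IFNγ, and the co-receptor LRP5 by 0.67 without it (limma adjusted p = 0.0046). LRP5 also passed with IFNγ (0.45, limma adjusted p = 0.0412), but that call was lost in 9 of the 12 fits (limma adjusted p up to 0.16). The call of RYK with IFNγ was lost in 1 fit and that of FZD1 without IFNγ in 2. FZD6 fell, from 17.9, 22.5 and 19.8 TPM to 8.25, 9.02 and 7.78 TPM without IFNγ, a log2 difference of -1.17 ± 0.11 (SE, limma adjusted p = 4.96e-06), and by a log2 difference of -0.80 with IFNγ (limma adjusted p = 1.30e-04). FZD5 also fell without IFNγ (log2 difference -0.45, limma adjusted p = 0.0378), but this call was lost in 6 of the 12 fits (limma adjusted p up to 0.13). The 3 tested genes of the R-spondin axis all rose in both settings, where 21.0% and 18.4% of all tested genes passed as higher. RNF43 and ZNRF3, ubiquitin ligases that remove Frizzled from the cell surface and are themselves Wnt targets, rose by 1.10 and 0.82 without and 1.21 and 0.75 with IFNγ, and LGR4, an R-spondin receptor, rose by 0.85 and 0.93.

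Downstream of the receptors, 5 of 16 cytoplasmic transducers passed without IFNγ and 4 with it, or 31.2% and 25%, both under the 34.8% and 33.1% of all tested genes. With the replicate block 8 and 9 passed, or 50% and 56.2%, beside 47.7% and 46.3%. APC2 rose by 0.80 and TNKS, a tankyrase that promotes AXIN turnover, by 0.53 without IFNγ (limma adjusted p = 0.0117, or 0.0567 without siMITF replicate 2). Beside CTNNB1, DVL2 was the other transducer that fell, with IFNγ (log2 difference -0.36, limma adjusted p = 0.0296), with the call lost in 3 of the 12 fits that left out a library (limma adjusted p up to 0.101). APC, GSK3A and GSK3B did not pass in either setting, and AXIN1 passed, with IFNγ, only when replicate was a block (limma adjusted p = 0.0233). Of 13 nuclear factors 9 passed without IFNγ and 6 with it, all higher. These were 69.2% and 46.2%, beside 34.8% and 33.1% of all tested genes. With the replicate block 11 and 6 passed, or 84.6% and 46.2%, beside 47.7% and 46.3%. Leaving out 1 library lost the calls without IFNγ of TCF7 in 9, PYGO2 in 8 and TLE5 in 5 of the 12 fits. With IFNγ, those of BCL9L and TLE1 were lost in 3 and 2. TLE4, a Groucho co-repressor, went from 5.24, 6.44 and 7.21 TPM to 14.4, 15.7 and 14.4 TPM without IFNγ, a log2 difference of 1.13 ± 0.15 (SE, limma adjusted p = 8.43e-05). TCF7L2, the Wnt effector once called TCF-4, rose by 0.77 without and 0.64 with IFNγ, the co-activator BCL9L by 0.91 without IFNγ, and CTNNBIP1, which keeps β-catenin off TCF factors, by 0.76 and 0.56. Activators and inhibitors of the pathway were thus both among the nuclear factors that rose.

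Among 7 tested feedback or target genes, 4 passed in each setting, or 57.1% beside 34.8% and 33.1% of all tested genes. With the replicate block the count was again 4 in each setting, where 47.7% and 46.3% of all tested genes passed. All 4 that passed without the block were higher: AXIN2, NKD1, NKD2 and TNFRSF19. TNFRSF19, a Wnt-inducible receptor of the TNF family, had the largest difference of these, from 80.7, 96.7 and 93.5 TPM in siCTRL to 262, 281 and 267 TPM in siMITF libraries, a log2 difference of 1.57 ± 0.115 (SE, limma adjusted p = 4.71e-07), and 1.75 with IFNγ. NKD2 was higher by 0.55 and 0.58, with the limit that its values are identical to those of another gene ID. This limit holds for 2 of the members and list genes, NKD2 included. MYC and CCND1, general growth genes that Wnt can induce, did not pass: MYC differed by -0.05 and 0.11 (limma adjusted p = 0.716 and 0.369) and CCND1 by -0.11 and 0.10 (limma adjusted p = 0.539 and 0.586). BAMBI, which β-catenin also induces, did not pass in either setting. Knockdown took its mean from 110 to 98.4 TPM without IFNγ and from 134 to 138 TPM with IFNγ. Of the planar polarity branch, which signals without β-catenin, PRICKLE1 rose by 1.33 and 0.97, DAAM1 had log2 differences of -1.07 and -0.63, and the other 5 tested genes did not pass in either setting, against 1 and 2 of them that passed with the block. The share of this branch that passed without the block was 28.6% in each setting, under the 34.8% and 33.1% of all tested genes. With the block it was 42.9% and 57.1%, beside 47.7% and 46.3%. These shares count PRICKLE1, which met the limit for testing only in the siMITF conditions.

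**Figure D4:**
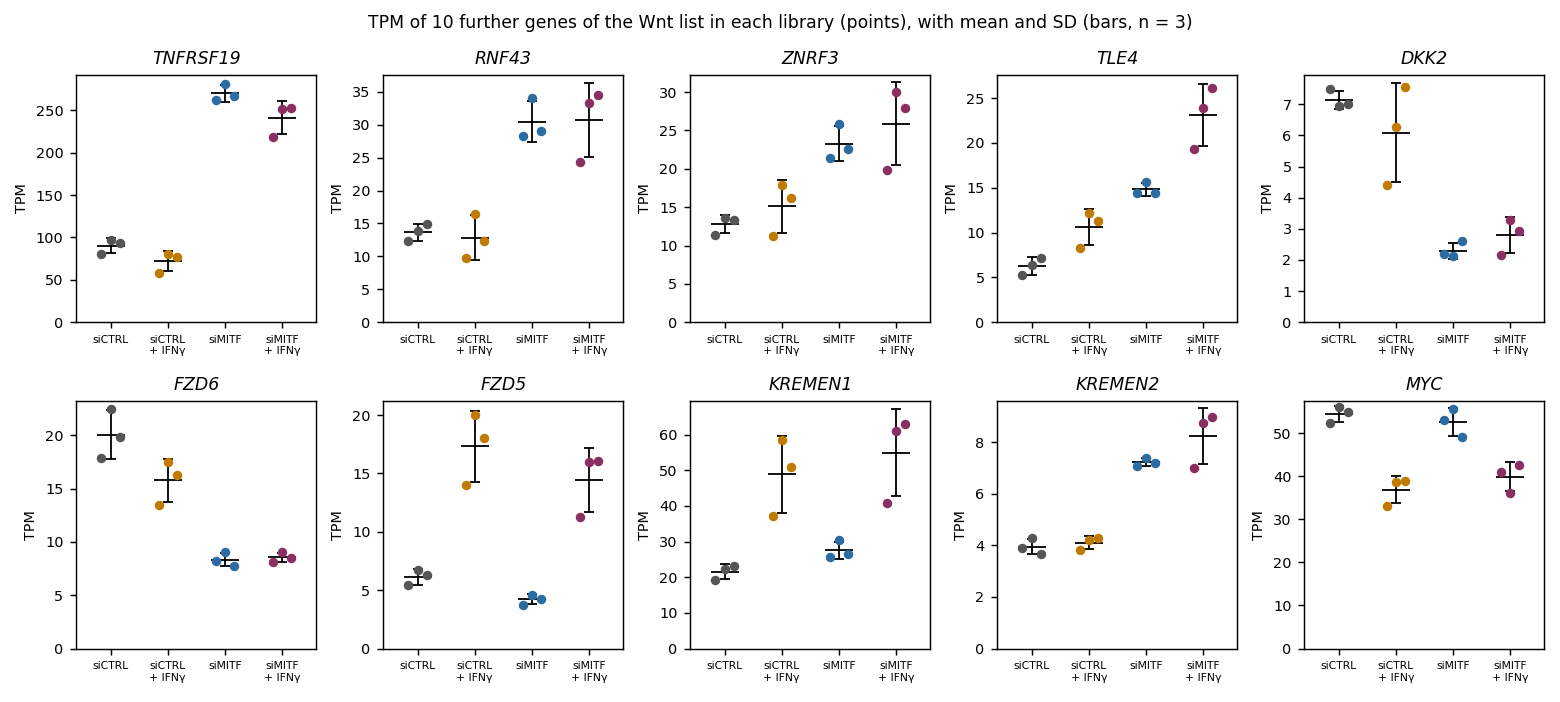
TPM of 10 further genes of the Wnt list (vertical axes, linear from 0, each with its own scale) in the 4 conditions. Points are libraries and bars the mean and SD of 3. TNFRSF19, RNF43, ZNRF3, TLE4 and KREMEN2 are higher and DKK2 and FZD6 lower in siMITF cells, while FZD5, KREMEN1 and MYC separate the libraries with IFNγ from those without.

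With IFNγ, 8 of the 69 list genes passed in siCTRL cells, 6 higher and 2 lower, or 11.6% beside the 12.9% of all tested genes (6.80% higher, 6.14% lower). In siMITF cells 11 passed, 6 higher and 5 lower, or 15.9% beside 20.2% (7.99% higher, 12.2% lower). A block for replicate raised these counts to 20 and 18, or 29.0% and 26.1% of the list, and the shares of all tested genes to 25.7% and 35.7%. FZD5 had the largest rise, from 5.41, 6.72 and 6.30 TPM to 14.0, 20.0 and 18 TPM in siCTRL cells and from 3.76, 4.62 and 4.28 TPM to 11.3, 16 and 16.1 TPM in siMITF cells. Its log2 differences were 1.35 ± 0.15 and 1.56 ± 0.15 (SE, limma adjusted p = 5.44e-05 and 1.19e-05). KREMEN1, the other co-receptor of DKK1, went from 19.2, 22.3 and 23.1 TPM to 37.1, 58.5 and 51.0 TPM in siCTRL cells, a log2 difference of 1.13 ± 0.18 (SE, limma adjusted p = 9.47e-04), and rose by 0.95 in siMITF cells (limma adjusted p = 0.00239). KREMEN2 thus passed for knockdown and KREMEN1 for IFNγ, although with the block KREMEN1 also passed for knockdown without IFNγ (limma adjusted p = 0.014). The interaction was -0.18 for KREMEN1 and 0.11 for KREMEN2 (limma adjusted p = 0.979 and 0.976). The TCF family gene TCF7 rose by 0.48 and 0.40. TLE4 rose by 0.66 in siCTRL and 0.60 in siMITF cells (limma adjusted p = 0.0113 and 0.0144), with adjusted p of 0.0526 and 0.0527 in limma without siCTRL replicate 1 or siCTRL + IFNγ replicate 3, and up to 0.0544 in the 3 fits that lost the call in siMITF cells. MYC was lower with IFNγ, from 52.4, 56.1 and 54.9 TPM to 33.2, 38.6 and 38.9 TPM in siCTRL cells, a log2 difference of -0.55 ± 0.09 (SE, limma adjusted p = 0.00106), and by a log2 difference of -0.39 in siMITF cells (limma adjusted p = 0.00784). DAAM1 was lower in siCTRL cells (log2 difference -0.67) and CTNNBIP1 in siMITF cells (-0.47), where BAMBI, a pseudoreceptor induced by β-catenin, rose by 0.49. TLE5 in siCTRL cells (0.19) and TCF7L2, CSNK1E and FZD1 in siMITF cells (-0.35, -0.37 and -0.46) also passed, but lost the call in 9, 8, 3 and 4 of the 12 fits that left out a library. No list gene passed for the interaction in limma, and 1 had an unadjusted p under 0.05.

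In siMITF + IFNγ against siCTRL cells, 37 of the 69 list genes passed, 31 higher and 6 lower, or 53.6% beside 44.5% of all tested genes. The largest rises after that of DKK1 were those of SFRP1 (2.04) and TLE4 (1.72, from a mean of 6.30 to 23.1 TPM). FZD5 was higher by 1.10, KREMEN1 by 1.29, and DAAM1, lower with each treatment in siCTRL cells, differed by -1.30.

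Over the 12 libraries, DKK1 was most like LEF1 among the members (Pearson r = 0.98 on the log2(TPM + 1) scale), then NKD1 (0.949), AXIN2 (0.908) and FZD7 (0.891). SFRP1 was at 0.784, TCF4 at 0.629 and CTNNB1 at -0.87. Of all tested genes the 5 most like DKK1 were MIA (0.997), a secreted melanoma protein, ZDHHC2 (0.995), DDAH1 (0.994), ERRFI1 (0.993), an inhibitor of EGFR signalling, and TMEM163 (0.993). MIA went from a mean of 12.2 TPM in siCTRL to 77.5 TPM in siMITF and from 11.5 to 70.1 TPM with IFNγ. These correlations are descriptions over 12 points that fall into siCTRL and siMITF clusters and share the replicate numbers.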

How the data were processed

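RNA of 624Mel cells was sequenced in 12 libraries, 3 for each of 4 conditions, taken from the labels. The authors ran Trimmomatic 0.39 and kallisto (GRCh38) and deposited TPM per Ensembl gene; the annotation release and the summing tool are not given in the sources used here. DESeq2 1.26.0 served for their tests on counts, which are not used here. TPM keep no depth, so no counting error or detection limit was derived, and small shifts of low genes are uncertain.

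From these values, limma 3.58.1 (R 4.3.3) was fitted to log2(TPM + 1) with 1 coefficient per condition, all 12 libraries and an intensity trend, over the 12773 gene IDs that averaged 2 TPM or more in any condition. Tests were two-sided and adjusted by Benjamini-Hochberg over all of them. Exact permutation of 3 against 3 libraries cannot go below p = 0.1 and was not used. The study's methods describe its experiments as done in independent biological replicates, and the labels do not say how the libraries of a condition were made, so p-values measure the spread between these libraries. Replicate numbers from the labels paired the libraries: deviations from condition means correlated at 0.102 to 0.625 in all 18 same-number pairs, with a median of 0.279. The 36 pairs of different numbers ranged from -0.474 to 0.226, with a median of -0.196, and 6 were over 0.1. Deviations sum to 0 within a condition, so positive values for same numbers push those for different numbers down. The 2 medians are thus not separate evidence. Alternatives were other pseudocounts, filters, scalings, moderation without a trend, a fit of only the compared conditions, the replicate block, TPM summed by symbol, a stricter threshold and each library left out. Symbols and positions came from GENCODE 44, promoters from RefSeq. Members and gene lists were chosen with earlier results of these data known. Besides the members and MITF, named genes were list genes that passed with libraries that did not overlap (the 10 largest rises and falls), list genes needed to describe a role, chosen after their values were seen, and the 5 genes most like DKK1.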

Additional observations from a re-analysis of the deposited data

How the results depend on the processing

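Across 1138 recomputed differences of the members, 1091 kept their direction and their side of the threshold, 9 lost and 12 gained a call, and 26 changed sign without being called in either fit. For the members passing with IFNγ in siMITF cells the count went from 1 to 3 under quantile normalization, median centring or the replicate block, and to 2 with TPM rescaled without mitochondrial genes, where 31.3%, 29.8%, 35.7% and 24.7% of all tested genes passed. The list counts for MITF knockdown, 36 without and 31 with IFNγ, ranged from 26 to 47 and from 23 to 44 over the alternatives. Leaving out 1 library gave 27 to 41 and 26 to 36. The shares of all tested genes, 34.8% and 33.1%, became 47.7% and 46.3% with the replicate block and 23.2% and 21.7% at an adjusted p under 0.01. The list count for IFNγ in siCTRL cells, 8, became 17 under quantile normalization or median centring and 20 with the replicate block, while the share of all tested genes went from 12.9% to 22.1%, 22% and 25.7%. In siMITF cells the list count, 11, became 17 under quantile normalization, 18 with the replicate block and 7 at an adjusted p under 0.01, while that share went from 20.2% to 31.3%, 35.7% and 11%. The list count for the interaction, 0, became 1 with no filter on low values (TRABD2B), quantile normalization or median centring (FZD6). Of 2387 recomputed differences of list genes that passed, 188 lost the call and 0 changed sign. Beyond the blocked values given above, the block changed no call of a member. Quantile normalization moved the share of higher genes among the calls for IFNγ in siCTRL cells from 52.5% to 41.7%. It also turned the interaction of NKD1 from -0.02 to 0.013.

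Leaving out each library in turn changed the sign of differences near 0. For IFNγ in siCTRL cells the log2 difference ranged from -0.21 to 0.18 for DKK1, -0.16 to 0.081 for FZD7, -0.081 to 0.14 for CTNNB1, -0.014 to 0.26 for AXIN2 and -0.15 to 0.14 for NKD1. NKD1 ranged from -0.12 to 0.21 for IFNγ in siMITF cells and from -0.15 to 0.17 for the interaction, where AXIN2 ranged from -0.028 to 0.24 and TCF4 from -0.35 to 0.31. TCF4 in siMITF + IFNγ against siCTRL cells ranged from -0.049 to 0.61. The cause of these changes was not tested. Depth is unknown for these values, which limits what can be said of DKK3, WNT5A and DKK1 in siCTRL cells, all below 2 TPM.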

Other observations

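WNT5B was below the limit for testing and was picked out after its values were seen. It was at 0.05, 0.02 and 0.04 TPM in siCTRL and 0.02, 0.02 and 0.04 TPM in siMITF libraries. With IFNγ it was at 0.60, 0.42 and 0.41 TPM in siCTRL and 0.99, 0.50 and 0.77 TPM in siMITF cells, so that every library with IFNγ lay above every library without. At under 1 TPM and with unknown depth, no fold is given.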
